A study of Homo sapiens with 22 samples.

Results

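The 246 protein-coding genes of human chromosome 19 whose symbols are ZNF followed by a number were read from the RefSeq gene table (GRCh38.p14), out of 19974 protein-coding genes on the autosomes and X. Of these, 6 carry a letter after the number and were kept, and readthrough and divergent-transcript entries with a hyphenated symbol were left out. The genes are 2469 to 487995 bp long (median 23151.5 bp). They were grouped into 9 clusters wherever neighbouring members lay within 1 Mb of each other on the same side of the centromere: 235 members fall into the clusters, numbered C1 to C9 along the chromosome, and 11 are scattered.

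Most of these genes encode KRAB zinc finger proteins. Such a protein binds DNA through an array of zinc fingers and, through its KRAB domain, recruits the co-repressor TRIM28, which brings the histone methyltransferase SETDB1 and HP1 proteins and so forms heterochromatin. Many of them repress retrotransposons, and the family spread by tandem duplication, which is why it lies in clusters on chromosome 19 and why neighbouring genes have similar sequence. In tumour cells the promoters of individual members are known to be silenced by DNA methylation, in patterns that differ from tumour to tumour.

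Open chromatin was measured by ATAC-seq, in which the transposase Tn5 inserts adapters into accessible DNA, in 22 libraries, 12 of KMS11 and 10 of KMS34, both established lines of multiple myeloma, a cancer of plasma cells. Both lines carry t(4;14), the translocation that places the histone methyltransferase gene NSD2 under immunoglobulin regulatory elements, and the labels give that genotype for every library except a pair labelled TKO, an abbreviation that the labels do not spell out. The 11 groups of 2 libraries are KMS11 at day 0, KMS11 TKO at day 0, KMS11 in the solvent DMSO at day 4 and at day 10, KMS11 in NSD2LDD (an agent used to degrade NSD2) at day 4 and at day 10, and the same groups of KMS34 without a TKO pair. The titles number the libraries as duplicates and do not say that they are separate cultures, so every p-value measures only the spread between these libraries, which may be technical, and each line is a single line, not a sample of lines.

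The deposited peak lists held 24979 to 39002 peaks in KMS11 (median 35606.5) and 34165 to 52518 in KMS34 (median 43898.0). They hold no read counts, so depth is unknown, and a peak that was not called was not detectable in that library rather than absent. Of 9 plasma cell markers, 7 had a called peak within 1 kb of a gene end in every library, and no library had one at any of 3 myeloid or 3 erythroid markers. Some markers of other cell types were called: the stromal gene COL1A1 in all 22 libraries, the T cell genes CD2 in 12 KMS11 and 9 KMS34 and CD3E in 11 and 10, and the B cell gene PAX5 in 6 KMS11 and 0 KMS34 libraries. Their part in the results was not tested. A called peak within 1 kb of either end of a gene is called an end peak below, because the gene table gives no strand, and covered bp is the number of bases under called peaks.

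The sequences that the calls bear on are the bases just before the annotated starts. RefSeq start windows were found for 216 of the 246 members (268 starts). The stretches below are the 250 bases before the start in GRCh38.p14, read 5′ to 3′ on the gene's strand, with every CG dinucleotide in capitals. ZNF91 (chr19:23395472-23395721, minus strand) and ZNF491 (chr19:11798273-11798522, plus strand) had a peak within 1 kb of the start in all KMS34 and no KMS11 libraries. ZNF675 (chr19:23687213-23687462, minus strand) lies in the same cluster as ZNF91 and was called in every library, ZNF492 (chr19:22634074-22634323, plus strand) lies there too and was called in none, and ZNF274 (chr19:58182811-58183060, plus strand) lies near the chromosome end and was called in every library. ZNF230 (chr19:44002707-44002956, plus strand) was called in 9 KMS11 and 10 KMS34 libraries and is the 1 member called in the TKO pair at its gene ends.
ZNF91: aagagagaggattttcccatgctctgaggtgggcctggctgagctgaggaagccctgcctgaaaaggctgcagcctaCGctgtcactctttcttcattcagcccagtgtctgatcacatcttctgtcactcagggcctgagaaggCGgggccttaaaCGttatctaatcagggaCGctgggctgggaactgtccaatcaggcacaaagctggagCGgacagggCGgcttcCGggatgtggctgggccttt
ZNF491: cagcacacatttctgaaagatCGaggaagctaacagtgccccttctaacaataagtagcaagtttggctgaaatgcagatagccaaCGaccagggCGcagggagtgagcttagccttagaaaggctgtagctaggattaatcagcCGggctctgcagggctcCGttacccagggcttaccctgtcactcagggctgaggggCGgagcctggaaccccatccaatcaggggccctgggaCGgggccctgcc
ZNF675: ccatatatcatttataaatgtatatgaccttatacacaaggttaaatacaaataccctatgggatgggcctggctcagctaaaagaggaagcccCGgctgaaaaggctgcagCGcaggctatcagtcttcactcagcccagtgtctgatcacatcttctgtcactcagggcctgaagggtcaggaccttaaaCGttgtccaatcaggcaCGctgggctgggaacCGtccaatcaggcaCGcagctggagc
ZNF492: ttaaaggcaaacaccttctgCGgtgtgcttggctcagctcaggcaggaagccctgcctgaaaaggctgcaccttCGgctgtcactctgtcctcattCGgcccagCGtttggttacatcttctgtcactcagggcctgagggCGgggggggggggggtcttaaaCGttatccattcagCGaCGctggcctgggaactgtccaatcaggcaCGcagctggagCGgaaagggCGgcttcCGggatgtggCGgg
ZNF274: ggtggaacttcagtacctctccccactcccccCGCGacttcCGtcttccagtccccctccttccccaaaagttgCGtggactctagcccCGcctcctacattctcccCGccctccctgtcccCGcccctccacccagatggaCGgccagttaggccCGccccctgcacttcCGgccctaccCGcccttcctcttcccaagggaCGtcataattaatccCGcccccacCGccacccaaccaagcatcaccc
ZNF230: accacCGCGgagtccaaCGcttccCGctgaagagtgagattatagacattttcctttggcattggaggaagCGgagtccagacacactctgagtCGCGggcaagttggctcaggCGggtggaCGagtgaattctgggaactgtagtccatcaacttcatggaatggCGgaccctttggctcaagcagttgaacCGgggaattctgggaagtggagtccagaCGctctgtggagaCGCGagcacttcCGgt
The 250 bases held 7 CG dinucleotides at ZNF91, 7 at ZNF491, 6 at ZNF675, 13 at ZNF492, 14 at ZNF274 and 15 at ZNF230. The ZNF675 and ZNF91 stretches have similar counts and opposite calls in KMS11.

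End peaks divided the members by cell line. In KMS11, 107 to 126 members per library had an end peak (median 120.5), and in KMS34 168 to 178 (median 171.5), so the lines did not overlap. By group, the numbers in KMS11 were 117 and 107 at day 0, 119 and 114 in TKO, 122 and 126 in DMSO at day 4, 123 and 124 in DMSO at day 10, 118 and 120 in NSD2LDD at day 4, and 121 and 124 in NSD2LDD at day 10. In KMS34 they were 170 and 168 at day 0, 172 and 177 in DMSO at day 4, 176 and 171 in DMSO at day 10, 170 and 172 in NSD2LDD at day 4, and 171 and 178 in NSD2LDD at day 10. Within a line the NSD2LDD and DMSO libraries overlap.

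As a share, 43.5% to 51.2% of the members had an end peak in a KMS11 library and 68.3% to 72.4% in a KMS34 library. Among all protein-coding genes the shares were 52.3% to 59.9% and 59.2% to 63.0%. The ZNF genes therefore lay below all genes in KMS11 and above them in KMS34. For ZNF genes of other chromosomes the shares were 64.3% to 74.1% in KMS11 and 76.4% to 78.3% in KMS34, and for the other protein-coding genes inside the 9 clusters 34.2% to 40.8% and 43.4% to 46.1%.

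**Figure D1:**
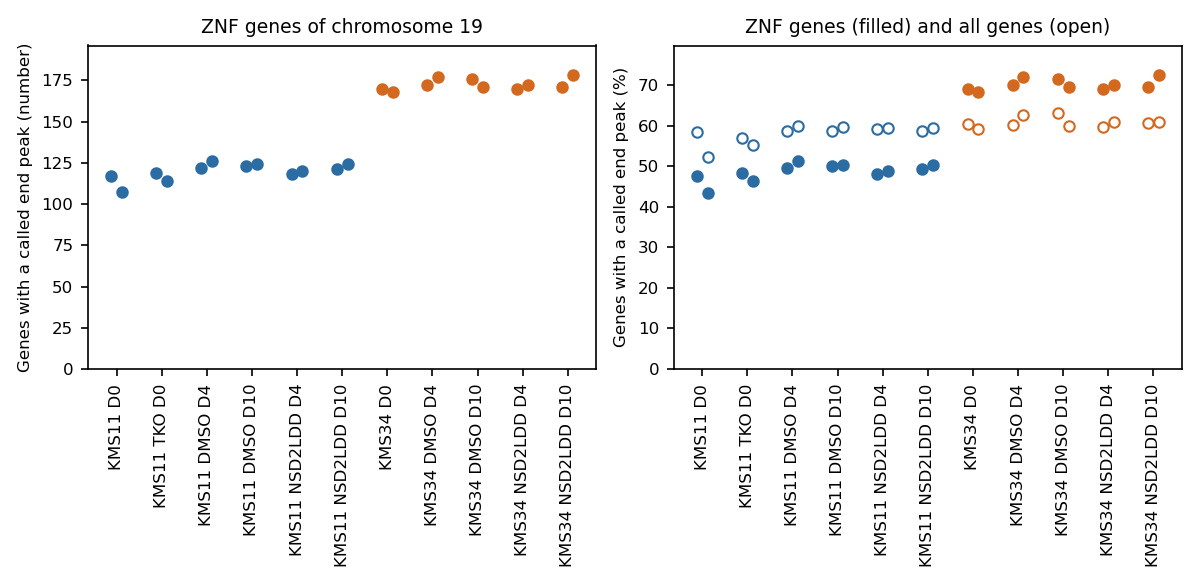
Number (left) and percent (right) of genes with a called peak within 1 kb of a gene end, by group, with 1 point per library, KMS11 in blue and KMS34 in orange; filled points are the 246 ZNF genes and open points all protein-coding genes. The ZNF genes sit at 107 to 126 in KMS11 and 168 to 178 in KMS34, while all genes move far less.

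Gene by gene, the calls fell into a few patterns. An end peak was present in every library at 102 members (41.5%) and in no library at 59 (24.0%), against 48.7% and 31.3% of all protein-coding genes. A further 33 members (13.4%) had one in all 10 KMS34 and none of the 12 KMS11 libraries, and 1 member, ZNF233 (0.407%, against 0.591% of all genes), had the opposite pattern. The other 51 members were called in some libraries, 16 of them in KMS34 libraries alone, 5 in KMS11 libraries alone and 30 in libraries of both lines. The share called in all KMS34 and no KMS11 libraries was 1.22% of all protein-coding genes and 3.04% of the ZNF genes of other chromosomes. It was 2.07% of the other genes of chromosome 19 and 4.61% of the other genes inside the clusters. Among the 15 zinc finger genes of chromosome 19 with other names it was 13.3% (2 genes), and 2 had the opposite pattern. These shares are descriptions and were not tested. Of the 59 members without an end peak, 34 had a peak elsewhere in the body or within 5 kb and 25 had none. Another gene ended within 2 kb of an end of 118 members, and 16 members share an end peak with another member, so a call there is not assigned to 1 gene. The count of 33 was chosen for report after the calls were seen, and it was 30 when each list was shortened to its 24979 strongest peaks and 38 with only peaks of -log10 q of 5 or more.

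**Figure D2:**
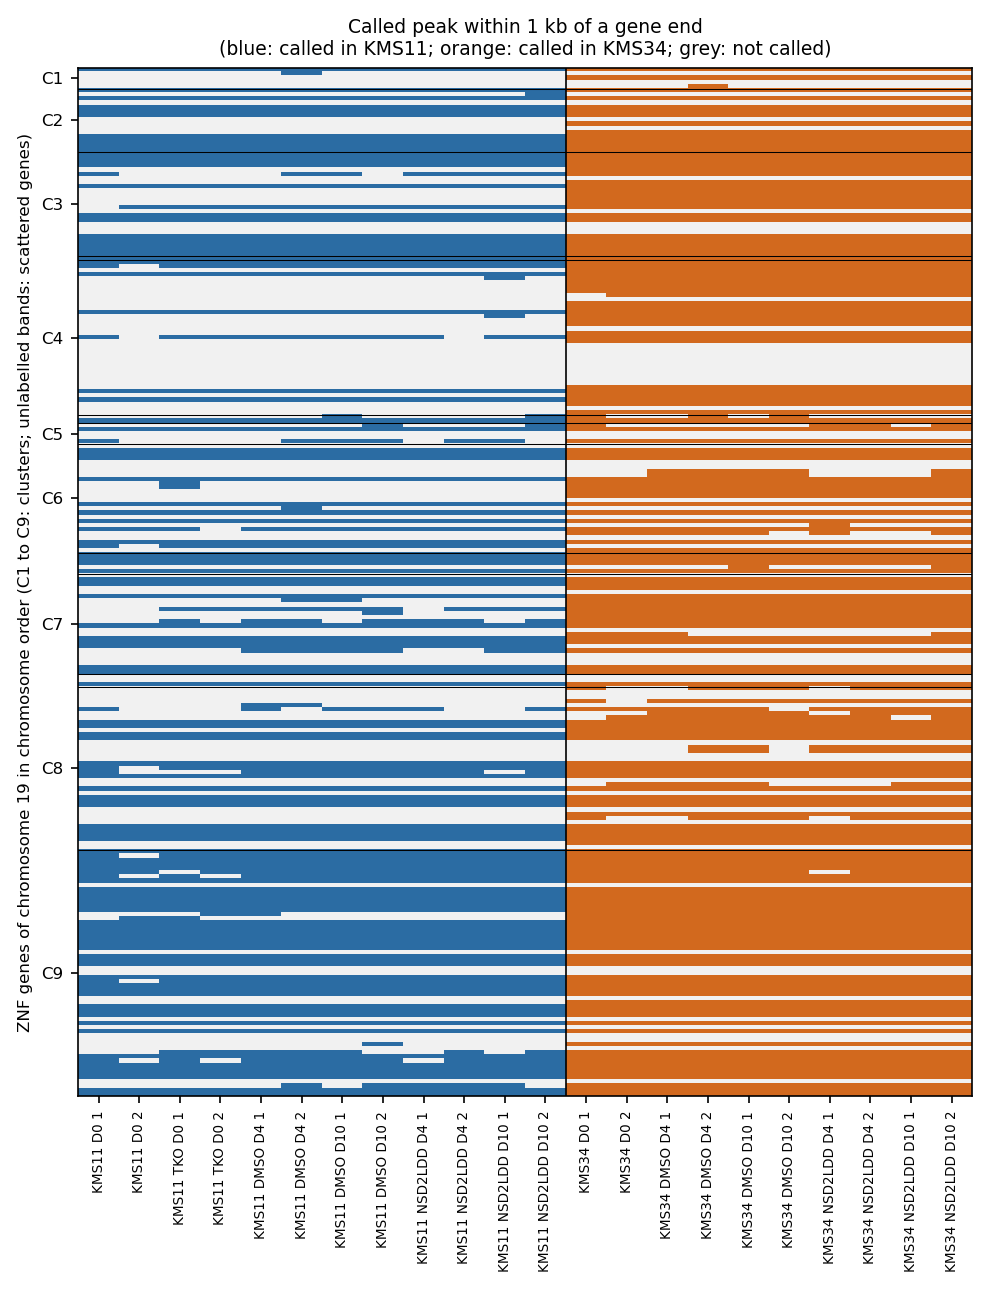
Called end peaks (blue in KMS11, orange in KMS34, grey where not called) for the 246 ZNF genes, from top to bottom in chromosome order, in each of the 22 libraries; horizontal lines separate the clusters. Bands that are orange only are densest in C3 and C4, and C9 is called in both lines along most of its length.

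Cluster C4 (chr19:19668153-24129968, 37 members from ZNF101 to ZNF254) differed most between the lines. In this pericentromeric array, 5 to 9 members had an end peak in a KMS11 library (median 7) and 23 to 24 in a KMS34 library. It held 14 of the 33 members called in all KMS34 and no KMS11 libraries, among them ZNF91, a repressor of SVA and LINE retrotransposons, and ZNF85. Peaks called anywhere in its span numbered 11 to 15 in KMS11 and 32 to 44 in KMS34. Only 5 members, ZNF101, ZNF253, ZNF430, ZNF724 and ZNF675, were called there in every library.

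At ZNF91 the covered length at the gene ends was 0 bp in all 12 KMS11 libraries. In KMS34 it was 546 and 426 bp at day 0, 560 and 552 bp in DMSO at day 4, 589 and 466 bp in DMSO at day 10, 493 and 519 bp in NSD2LDD at day 4, and 496 and 562 bp in NSD2LDD at day 10. All 10 KMS34 values lie within 426 to 589 bp, with or without NSD2LDD. ZNF93, a repressor of LINE elements in the same cluster, had 640 to 954 bp (median 716.5) in the 6 day 0 and DMSO libraries of KMS34, and in KMS11 172 bp in 1 NSD2LDD day 10 library and 0 bp in the others. The longest member of C4, ZNF254, had 528 to 1059 bp (median 658.0) in the same 6 KMS34 libraries and 0 bp in every KMS11 library. No library had a peak within 1 kb of the RefSeq start of ZNF254, nor of ZNF730, whose end peak was likewise called in KMS34 alone. ZNF101, the member of C4 with the most covered bases over its body and 5 kb either side, behaved otherwise, with 742 to 989 bp (median 875.0) in the 6 KMS11 and 909 to 1093 bp (median 981.5) in the 6 KMS34 day 0 and DMSO libraries.

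C4 also held the longest run of neighbours without an end peak in any library, the 10 genes from ZNF43 to ZNF728: ZNF43, ZNF208, ZNF257, ZNF676, ZNF729, ZNF98, ZNF492, ZNF99, ZNF723 and ZNF728. Of these, ZNF43 had a peak within 1 kb of its RefSeq start in 7 KMS34 and no KMS11 libraries. ZNF676, the longest member of the cluster without an end peak, had no covered base in its body or 5 kb either side in any library.

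C3 (25 members, ZNF653 to ZNF791) had 13 to 14 members with an end peak in KMS11 and 20 in every KMS34 library. Of its members, 6 were called in all KMS34 and no KMS11 libraries, and 4 of these, ZNF763, ZNF433, ZNF878 and ZNF844, are consecutive. ZNF69, both the longest member of C3 and the most covered over its body and 5 kb either side, had no end peak in KMS11 but was covered elsewhere in its body in every library. In C6 (26 members, ZNF565 to ZNF573), 9 to 12 members were called in KMS11 and 14 to 17 in KMS34. C7 (24 members, ZNF575 to ZNF296) had 9 to 13 and 16 to 17, and C8 (39 members, ZNF175 to ZNF331) had 14 to 18 and 22 to 28. In each of C3, C4, C6, C7 and C8 the KMS11 and KMS34 libraries did not overlap.

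C9 (59 members, ZNF628 to ZNF446) was open in both lines, with 39 to 44 members called in KMS11 and 47 to 48 in KMS34, 37 of them in every library and 1, ZNF671, in all KMS34 and no KMS11 libraries. It includes ZNF274, which binds the 3′ ends of other ZNF genes and recruits SETDB1 there. ZNF274 had 727 to 1295 bp (median 1000) at its ends in the 6 KMS11 and 1343 to 1825 bp (median 1515.0) in the 6 KMS34 day 0 and DMSO libraries. The member of C9 most covered over its body and 5 kb either side, ZNF524, averaged 1501.2 bp at its ends over the 22 libraries. In the same cluster ZNF154, a gene whose promoter is methylated in many tumour types, had no covered base in its body or 5 kb either side in any library. The libraries of the lines did not overlap in C9, nor in C2 (15 members), which had 9 to 10 members called in KMS11 and 11 in every KMS34 library. C1 and C5 hold 5 members each with at most 3 called in a library, and the scattered members had 7 to 8 called in both lines. Outside C3 and C4, 13 members were called in all KMS34 and no KMS11 libraries. They were ZNF556 in C1, ZNF266 and ZNF426 in C2, ZNF829, ZNF568 and ZNF573 in C6, ZNF283, ZNF155 and ZNF223 in C7, ZNF836, ZNF347 and ZNF813 in C8, and ZNF671 in C9. ZNF671, a gene found methylated in carcinomas, had 679 and 493 bp at its ends in KMS34 at day 0, 301 and 822 bp in DMSO at day 4, 936 and 333 bp in DMSO at day 10, 742 and 510 bp in NSD2LDD at day 4, and 626 and 756 bp in NSD2LDD at day 10. ZNF556 had 296 to 601 bp (median 399.0) and ZNF266 474 to 867 bp (median 556.0) in the 6 day 0 and DMSO libraries of KMS34. These members were at 0 bp in all 12 KMS11 libraries, and none was at 0 bp in a KMS34 library. With clusters split at gaps over 500 kb, C4 and C3 hold the same numbers of members (37 and 25) and of members called in all KMS34 and no KMS11 libraries (14 and 6).

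The difference between lines was then measured as covered bp. The 6 day 0 and DMSO libraries of KMS34 were set against the 6 of KMS11, on the scale of log2(covered bp + 100) at gene ends after subtraction of the library median, in a limma fit over all 13269 genes covered in at least 2 libraries. Of the 246 members, 182 entered the test at gene ends and 64 did not. Of the 182, 77 were higher in KMS34 and 8 lower (limma, Benjamini-Hochberg adjusted p under 0.05), against 11.8% higher and 9.16% lower among all genes tested (21.0% either way). Among all genes the split was 1570 higher and 1216 lower, and without scaling of the libraries it was 2369 and 492. These counts include genes that entered the test through 1 line alone. At gene ends 47 members had no covered base in any KMS11 library and 3 none in any KMS34 library, so a difference there could take only 1 direction, and 43 of the 77 higher and 3 of the 8 lower members are among them. Of the 132 members covered in at least 1 library of each line, 34 (25.8%) were higher and 5 (3.79%) lower, against 9.65% and 7.27% of the 12043 such genes among all, and the median difference was 0.13. The 77 genes rest on 75 merged peak regions, and 6 of them share a region with another called member. KMS34 also has the longer peak lists, and with every list shortened to 24979 peaks 60 of 168 tested members were higher and 7 lower. These counts again include members covered in 1 line alone. The share of all genes in that run is not given here, so they are not set against a background.

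Over the body and 5 kb either side, on the scale of log2(covered bp + 200), 96 of 215 tested members were higher and 8 lower, against 20.9% and 14.7% of all genes (35.6% either way). Of the 168 members covered in both lines there, 56 (33.3%) were higher and 5 (2.98%) lower, against 19.6% and 14.4% of all such genes. Among all genes the split over the body was 3499 higher and 2461 lower, and 4265 and 944 without scaling. Most of the covered length of the members lay at the gene ends, 66.4% to 70.3% in KMS11 and 66.0% to 69.6% in KMS34. The interior of the genes held 17.5% to 20.1% and 17.2% to 19.6%. The split of covered length thus overlapped between lines.

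By cluster, 20 of the 24 tested members of C4 were higher in KMS34 at the gene ends and none lower, with a median log2 difference of 2.4. Of these 24, 15 had no covered base in any KMS11 library, and among the 9 covered in both lines 5 were higher. In C3 it was 10 higher and 2 lower of 20 (median 0.43), in C6 11 and 1 of 18 (median 0.75), in C7 8 and 1 of 18 (median 0.5), and in C8 12 and 1 of 29 (median 0.37). In C9 it was 11 and 1 of 48, with a median of 0.05. Among all genes tested 11.8% were higher and 9.16% lower. The cluster counts and medians include members at 0 bp in every KMS11 library, which could only be higher. Those called in all KMS34 and no KMS11 libraries alone were 6 in C3, 3 each in C6, C7 and C8, and 1 in C9. A log2 difference against a group at 0 bp depends on the added bases and is not a fold.

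**Figure D3:**
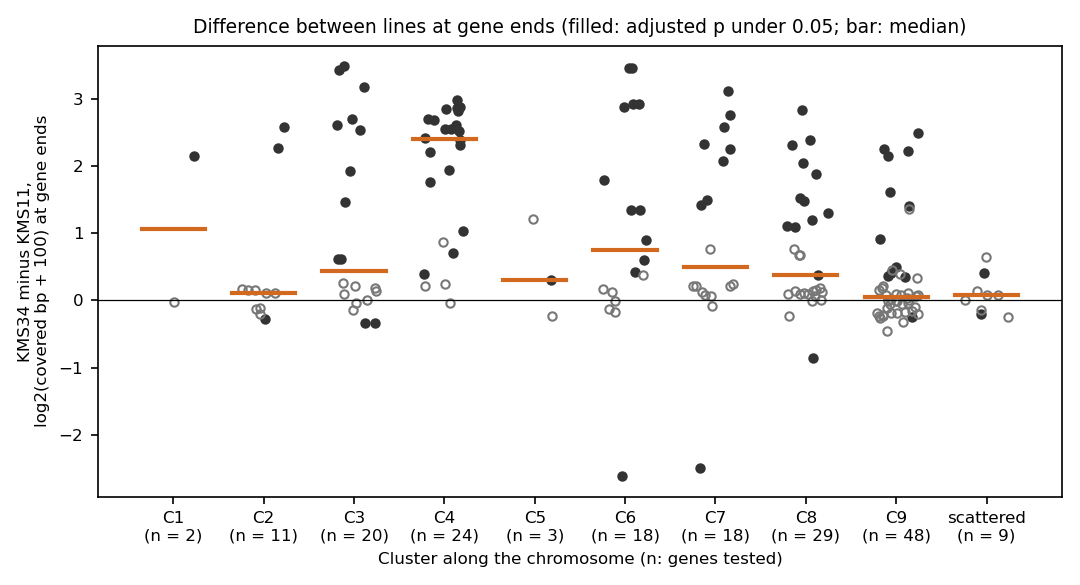
Difference between lines, KMS34 minus KMS11, in log2(covered bp + 100) at gene ends for each tested ZNF gene (points; filled where the adjusted p is under 0.05) by cluster, with the median as a bar. The median is 2.4 in C4 and 0.05 in C9.

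The largest rises at gene ends were at ZNF491, ZNF345 and ZNF790, ZNF763, ZNF69, ZNF223, ZNF730, ZNF568 and ZNF829, and ZNF573, all at 0 bp in the 6 KMS11 libraries. ZNF763 lies within 2 kb of an end of ZNF69. ZNF345 and ZNF790 have the same covered bases, as do ZNF568 and ZNF829, since each pair shares a peak at the gene ends. ZNF491 had 838 to 1433 bp (median 1287.0) in KMS34, a difference of 3.48 ± 0.16 (SE, 6 against 6 libraries). No p is given for members covered in 1 line alone, because they passed the filter only through the line in which they are covered. ZNF763 had 797 to 1470 bp (median 1286.5) and ZNF69 798 to 1271 bp (median 944.5). ZNF568, whose mouse relative represses a placental transcript of Igf2, had 630 to 902 bp (median 819.0; 2.91 ± 0.17). At ZNF91 the difference was 2.42 ± 0.16. All of these members have groups that do not overlap.

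The pattern of calls and the covered bp come from the same peaks, so the sizes by pattern are a description. The differences of the 102 members with an end peak in every library ran from -0.34 to 0.70 with a median of 0.08, and those of the 46 tested members called in some libraries from -2.61 to 3.45 with a median of 1.35. ZNF274 was higher in KMS34 by 0.37 ± 0.12 (limma adjusted p = 0.0356), and those 6 against 6 libraries do not overlap, whereas with TKO and NSD2LDD included the values ran from 727 to 1569 bp in KMS11 and from 920 to 1825 bp in KMS34. ZNF224, a transcriptional repressor of C7, had 497 to 1293 bp in KMS11 and 821 to 1315 bp in KMS34 (0.13 ± 0.11, limma adjusted p = 0.423), and its groups overlap.

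The 8 members lower in KMS34 at gene ends were ZNF607, ZNF233, ZNF350, ZNF490 and ZNF791, ZNF699, ZNF628 and ZNF473. ZNF233 was covered in every KMS11 library, with 232 and 303 bp at day 0, 745 and 392 bp in TKO, 372 and 528 bp in DMSO at day 4, 320 and 663 bp in DMSO at day 10, 241 and 666 bp in NSD2LDD at day 4, and 327 and 350 bp in NSD2LDD at day 10, and was at 0 bp in every KMS34 library (-2.49 ± 0.23). ZNF607 was at 0 bp in every KMS34 library too, and in KMS11 it had 205 to 859 bp in 11 libraries and 0 bp in day 0 replicate 2, the library with the shortest list (-2.61 ± 0.31). ZNF233 lies in C7, where 8 of 18 tested members were higher in KMS34, and ZNF607 in C6, where 11 of 18 were. The other 6 differences were between -0.85 and -0.21. ZNF473, which takes part in histone mRNA processing, was lower by -0.21 ± 0.07 (limma adjusted p = 0.0485), and without scaling of the libraries its difference was 0.0043.

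Peaks away from the annotated gene ends separated the lines at a few long or multi-start members. ZNF536, the longest member, a regulator of neuronal differentiation, had 597 to 1159 bp (median 733.5) over its body and 5 kb either side in the 6 KMS11 and 1858 to 4713 bp (median 3085.5) in the 6 KMS34 day 0 and DMSO libraries (1.49 ± 0.16 on the body scale, limma adjusted p = 2.83e-06), with no overlap. At its gene ends 2 KMS11 and 3 KMS34 libraries had a peak. ZNF331, an imprinted gene at the end of C8, had no end peak in any library, 0 to 978 bp over its body in KMS11 (median 211.0) and 863 to 1818 bp in KMS34 (median 1572.5; 1.65 ± 0.36, limma adjusted p = 0.0017). The highest KMS11 value of ZNF331 lies above the lowest KMS34 value. ZNF541 was lower in KMS34 over its body, with 399 to 555 bp in KMS11 and 0 to 296 bp in KMS34 (-1.70 ± 0.26, limma adjusted p = 7.68e-05). ZNF382, reported as silenced in several tumours, had no covered base in any library.

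The NSD2LDD libraries carry no weight in the difference between lines. They were part of the same fit, through its filter, scaling and spread, so they are not an independent set. Of the 77 members higher in KMS34 at gene ends, 57 (74.0%) had every KMS34 NSD2LDD value above every KMS11 NSD2LDD value. Among all genes called higher, 840 of 1570 (53.5%) did. Of the 77, 43 had no covered base in any KMS11 library, as had 408 of the 1570, so their KMS11 values were fixed at 0 bp. Because the sets differ in this way, no conclusion is drawn from the difference of these shares. Of the 8 lower members, 2 (25.0%) were below without overlap, against 46.3% of all genes called lower.

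**Figure D4:**
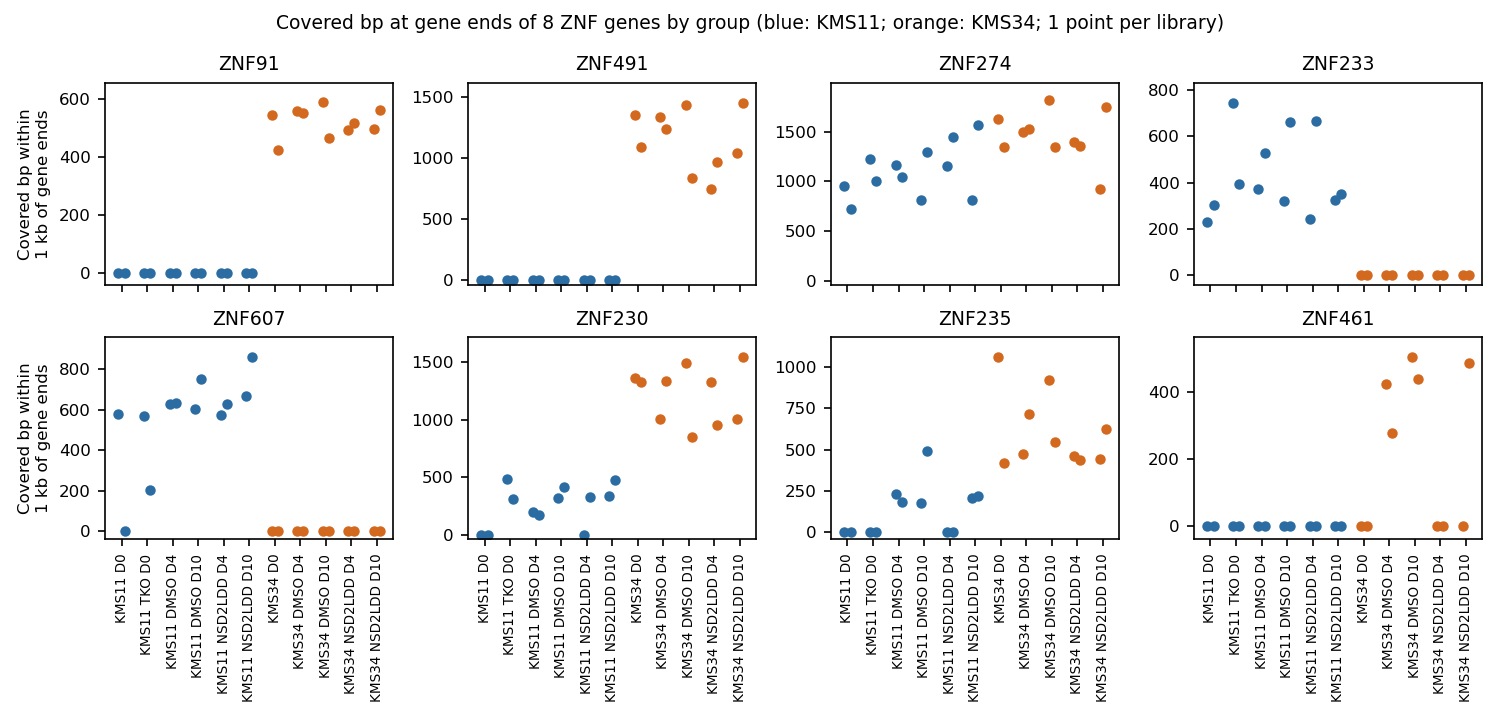
Covered bp within 1 kb of the gene ends of 8 ZNF genes in each library (points; KMS11 blue, KMS34 orange) by group, on linear axes whose scale differs between panels. ZNF91 and ZNF491 are at 0 bp in KMS11, ZNF233 and ZNF607 at 0 bp in KMS34, ZNF274 is covered in all 22 libraries, and ZNF461 is covered in the 4 KMS34 DMSO libraries and 1 NSD2LDD library.

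Calls at the annotated starts, examined after the calls at the gene ends were seen, also divided the lines. They come from the same peaks, and a start can be an end of the gene, so they are not a separate measure. Of the 268 RefSeq starts, 119 (44.4%) had a peak within 1 kb in every library and 32 (11.9%) in all KMS34 and no KMS11 libraries. Another 66 had a peak in some libraries and 51 in none. All other genes with starts, 26979 genes with 34693 starts, were not limited to protein-coding genes. Of their starts, 1.13% were called in all KMS34 and no KMS11 libraries. C4 held 12 of the 32 starts, C3 6 and C6 6. At the 32 starts the peaks in KMS34 had a median width of 498 to 750 bp per library, and their deposited fold enrichment had a median percentile of 78.2 to 91.4 among the peaks of its own list. Their summits lay within 300 bp of the start in 93.8% to 100.0% of cases per library. The median width of all peaks in a KMS34 list was 374 to 594 bp. The summits at these starts thus lay close to the start, with fold enrichment above the middle of the lists. Of the 59 members without an end peak, 48 have a RefSeq start, and 12 of these had a start with a peak within 1 kb in every library, among them ZNF420, ZNF529 and ZNF575.

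The starts also differ in base composition. In the 300-base window from 250 before to 50 after the start, the median number of CG dinucleotides was 23 at the 119 starts called in every library, 13.5 at the 32 called in all KMS34 and no KMS11 libraries, 19 at the 66 called in some and 16 at the 51 called in none. Among all other genes it was 28, 15, 14 and 4 for the same patterns. The starts of the ZNF genes called in no library are therefore richer in CG than those of other genes called in none. Those other genes include genes that are not protein-coding, so the sets are unlike. The ranges of the patterns overlap widely. No test was made, because starts of 1 cluster share their sequence.

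**Figure D5:**
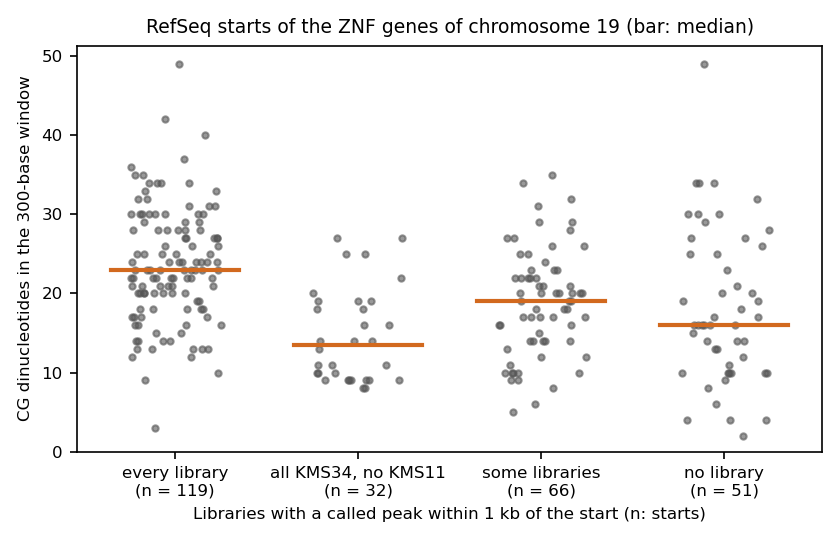
CG dinucleotides in the 300-base window of each RefSeq start of the ZNF genes (points), by the libraries with a called peak within 1 kb of the start, with the median as a bar. The medians are 23, 13.5, 19 and 16 from left to right, and the ranges overlap.

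Start windows within a cluster share short sequences. The letters CCAATCAG, an extended CCAAT box, searched on both strands, stood in 58 of the 268 windows (21.6%). They stood in 3.85% of the windows of all other genes, again not limited to protein-coding genes. In C4 they stood in 29 of 30 windows (96.7%), in C3 in 21 of 26 (80.8%), and in C2, C5, C6 and C9 in none. The ETS core CCGGAAG, searched the same way, stood in 109 windows (40.7%) against 10.0%, with 22 of the 30 windows of C4 and 2 of the 26 of C3. CCAATCAG was chosen after the windows had been examined. Neither run of letters contains the other. The stretches of 30 bases around CCAATCAG, with those letters in capitals, show the likeness of C4 windows whose calls differ, ZNF91, ZNF681 and ZNF100 called in all KMS34 and no KMS11 libraries, ZNF675 and ZNF430 in every library, and ZNF492 and ZNF208 in none.
ZNF91: ctgggaactgtCCAATCAGgcacaaagctg
ZNF681: ctgggaactgtCCAATCAGgcatgcagctg
ZNF100: ctggaaaccgtCCAATCAGgcatgcagctg
ZNF675: ctgggaaccgtCCAATCAGgcacgcagctg
ZNF430: cagggaaccgtCCAATCAGgcacgcaggtg
ZNF492: ctgggaactgtCCAATCAGgcacgcagctg
ZNF208: gctgggaacgtCCAATCAGgcaggcagctg
Within C4, CCAATCAG stood in 11 of the 12 windows called in all KMS34 and no KMS11 libraries, in 4 of 4 called in every library, in 6 of 6 called in some and in 8 of 8 called in none. The letters are thus shared by C4 windows of every pattern. The median CG count of these C4 windows was 9.5, 13.5, 10 and 11.5 in the same order. Of the 30 C4 windows, 20 (66.7%) hold a stretch of 36 bases found without change in another start window elsewhere, and 1 (3.33%) a stretch of 50 bases. The labels do not say how reads that align equally well at several places were treated, so calls in these near-identical stretches are uncertain.

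NSD2LDD was compared with DMSO over both days, 4 libraries against 4 in each line. No member passed the test at gene ends or over the body in either line (limma, Benjamini-Hochberg), against 0.0% of all genes in KMS11 and 0.00754% (1 gene, not a member) at gene ends in KMS34. At an unadjusted p under 0.05 there were 4 members in KMS11 and 6 in KMS34 of 182 at gene ends (2.2% and 3.3%, against 2.7% and 4.49% of all genes), and 4 and 10 of 215 over the body (1.86% and 4.65%, against 3.5% and 6.24%). All 4 shares lay below those of all genes. The median log2 difference of the members at gene ends was 0.01 in KMS11 and -0.02 in KMS34. Of the 182 members, 156 in each line had a 95% interval of the difference inside -1 to 1 on that scale. The difference of the effects between lines had no called member either, against 0.00754% of all genes at gene ends and 0.0% over the body. At an unadjusted p under 0.05 there were 6 at gene ends (3.3%, against 2.74% of all genes) and 5 over the body (2.33%, against 3.32%).

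In KMS34 the smallest p belonged to the end peak that ZNF461 and ZNF567 share. It was covered by 425 and 277 bp in DMSO at day 4 and 507 and 439 bp in DMSO at day 10. In NSD2LDD it was at 0 and 0 bp at day 4 and at 0 and 487 bp at day 10, and it was at 0 bp in both day 0 libraries and in all KMS11 libraries. The difference was -1.66 ± 0.39 (limma, unadjusted p = 0.000652, adjusted p = 0.206), and 1 NSD2LDD library lies among the DMSO values. Without that library, day 10 replicate 2, the difference was -2.26, and without NSD2LDD day 10 replicate 1 it was -1.06. No p is given for these runs. In the first of them the 2 genes are covered in DMSO libraries alone and pass the filter only through them. ZNF347 had 195 to 565 bp in the DMSO and 391 to 771 bp in the NSD2LDD libraries (0.59 ± 0.21, limma adjusted p = 0.934), with overlap. Over the body, ZNF626 had 234 to 370 bp in the 4 DMSO libraries and 201, 0, 0 and 0 bp in the NSD2LDD libraries (-1.04 ± 0.34, limma adjusted p = 0.586).

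In KMS11 the smallest p belonged to ZNF235, with 235, 184, 177 and 494 bp in DMSO, 0 bp in both NSD2LDD day 4 libraries and 208 and 221 bp at day 10 (-0.99 ± 0.24, limma adjusted p = 0.59). ZNF350, known as a partner of BRCA1, had 190 and 393 bp in the DMSO day 4 libraries and 0 bp in all others of the line (-0.95 ± 0.24). No p is given for ZNF350, because it passed the filter only through those DMSO libraries. ZNF547 was covered in all 8 libraries and differed by -0.22 ± 0.09 (limma adjusted p = 1.0). The values of ZNF235 and ZNF350 overlap between DMSO and NSD2LDD.

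The TKO pair was compared with the KMS11 day 0 pair. At gene ends 1 member, ZNF230, was higher and none lower, against 1.05% higher and 1.83% lower among all genes (2.88% either way), and over the body 2 were higher, ZNF155 and ZNF230, and 1 lower, ZNF709, against 1.35% and 3.34% (4.69% either way). ZNF230 had 479 and 306 bp at its ends in TKO and 0 bp in both day 0 libraries (2.12 ± 0.45, limma adjusted p = 0.0169). Its ends were also covered, by 170 to 414 bp, in the 4 KMS11 DMSO libraries, so among KMS11 libraries the day 0 pair and 1 NSD2LDD day 4 library are those at 0 bp. The ZNF155 call rests on the same bases, which lie in its 5 kb flank. ZNF709 had 294 and 165 bp in TKO and 721 and 241 bp at day 0 (-0.73 ± 0.20 over the body, limma adjusted p = 0.0428), and these values overlap.

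These TKO calls depend on single libraries and settings. With 1 day 0 or TKO library left out the number of members called ran from 0 (without TKO replicate 2) to 4 (without day 0 replicate 1) over the body and from 1 to 8 (without day 0 replicate 1) at gene ends, where it was 4 without day 0 replicate 2 and 3 without TKO replicate 2. At gene ends no member was called with 1000 bp added, with lists of equal length or with only KMS11 in the fit.

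The genes of the repressor machinery that KRAB proteins recruit were open in both lines. Of 28 such genes, chosen for their roles with earlier results of these data known, 24 had an end peak in every library, among them TRIM28 and SETDB1 (85.7%, against 48.7% of all genes), and none had the pattern of all KMS34 and no KMS11 libraries. At gene ends none of 27 tested was higher in KMS34 and 1 was lower, against 11.8% and 9.16% of all genes, and over the body 3 of 28 were higher and 8 lower (10.7% and 28.6%, against 20.9% and 14.7%). UHRF1, a factor of maintenance DNA methylation, had no end peak in any library, and CHD3, CHD4 and EHMT2 had one in some.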

How the data were processed

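ATAC-seq peak lists of 22 libraries were used. Per the submitters' processing notes, fastp, BWA, SAMtools, Picard, MACS3 and deepTools were used with hg38, whose versions and settings those notes leave out. In the deposited lists the score, the fold enrichment (a ratio) and the -log10 p were not used, except that fold was ranked within a list. The deposited -log10 q (smallest 2.0) served to filter or rank peaks, and the deposited summit offset, a position in bp, to place summits.

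Covered bases per gene were computed with Python 3.11.15 (numpy 2.4.6, pandas 2.3.3, scipy 1.17.1, matplotlib 3.10.9), checked against bedtools 2.31.1. Genes covered in at least 2 libraries were fitted with limma 3.58.1 (trend, robust) in R 4.3.3, with 11 group means over 22 libraries, on log2 of covered bp plus 100 (gene ends) or 200 (body and 5 kb either side), less the library median over genes covered in all libraries, with Benjamini-Hochberg adjustment at 0.05. The fit was tested on simulated data. Clusters were split at gaps over 1 Mb or at the centromere, and groups under 5 members were pooled as scattered. Named are, per comparison, the 10 largest changes each way among called members, or the 3 smallest p where fewer than 4 passed, the longest and most covered members of a cluster, members called in 1 line only, and a fixed set of 8 genes. Groups follow titles and descriptions. Depth could not be given because the lists hold no counts. Alternatives covered peak filters, list length, scaling, added bases, filters, moderation, blocks, covariates and left-out libraries. The members and lists were chosen with earlier results of these data known.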

Additional observations from a re-analysis of the deposited data

Results flagged for a closer look

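In 70 sets of 4 libraries of 1 line and treatment, the gap of an extreme library to the nearest other was measured. In 13 the gap was above the critical value of 0.829 times the range. For normally distributed values chance gives about 1 in 20, a rate that does not hold here. A set with all but 1 library at 0 bp is always flagged, as at ZNF461, ZNF567 (gene ends) and ZNF626 (body). Most sets also come from genes chosen for a small p in these libraries. The same library recurs across genes that share peaks. KMS34 NSD2LDD day 10 replicate 2 was highest at the gene ends of ZNF235 with 626 bp (others 435 to 461 bp), of ZNF414 with 1067 bp (684 to 732 bp), of ZNF461 and ZNF567 with 487 bp (others 0 bp) and of ZNF761 with 988 bp (602 to 640 bp). The same library was highest over the body and 5 kb either side of ZNF235, ZNF461 and ZNF761 with the same values, of ZNF414 with 1869 bp (1042 to 1148 bp) and of ZNF567 with 1612 bp (910 to 1002 bp). KMS34 NSD2LDD day 4 replicate 1 was the only one of its 4 libraries with covered bases over ZNF626, 201 bp. KMS11 DMSO day 10 replicate 1 was lowest at ZNF547, with 612 bp against 792 to 818 bp, in both measures. These covered lengths are not scaled by library. In KMS34 NSD2LDD day 10 replicate 2 the median width of all peaks was 583 bp, against 404 to 421 bp in the other KMS34 NSD2LDD libraries. The causes were not tested.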

How the results depend on the processing

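The number of members called between KMS34 and KMS11 stayed within 1.5 times its value in every alternative run: 104 over the body (90 to 119) and 85 at gene ends (63 to 91, the lowest with log2 peak number as a covariate). Shares of all genes in the alternative runs, here and below for NSD2LDD and TKO, are not given. The ranges therefore describe member counts and not an excess over all genes. Leaving out 1 library gave 93 to 105 and 73 to 92. Members with an end peak in every library numbered 102 (87 to 109, and 102 to 106 with 1 library left out), and those called in all KMS34 and no KMS11 libraries 33 (30 to 38, and 33 to 35). Without scaling, the median of all genes between lines moved from 0.03 to 0.25 over the body and from 0.00 to 0.22 at gene ends, the members' median from 0.28 to 0.5 and from 0.24 to 0.45, and the split of all genes from 3499 higher and 2461 lower to 4265 and 944 over the body and from 1570 and 1216 to 2369 and 492 at gene ends. For TKO the median of all genes moved from -0.03 to 0.11 over the body and from -0.05 to 0.11 at gene ends. ZNF473 turned at gene ends without scaling (0.0043, limma adjusted p = 0.978). Of 42 values of named genes between lines, 13 lost their call or turned in at least 1 alternative.

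Under NSD2LDD, lists of equal length gave 1 member called in KMS34 and 1 in the difference of effects, ZNF583 (lower) in both measures; the cause was not tested. With 1 library left out no member was called in KMS11 or in the difference of effects in either measure, or in KMS34 over the body. At gene ends in KMS34 the difference at ZNF461 and ZNF567 ran from -2.26 to -1.06. No count is given there, because without NSD2LDD day 10 replicate 2 these genes are covered in DMSO libraries alone. For TKO over the body the count of 3 became 1 with lists of equal length (ZNF529) and 0 without scaling, with 1000 bp added and with only KMS11 libraries, and ran from 0 to 4 with 1 library left out. At gene ends the count of 1 became 0 with lists of equal length, with 1000 bp added and with only KMS11 libraries, and ran from 1 to 8. Deviations of same-numbered libraries correlated at -0.097 to 0.284 over 5 pairs of groups, with KMS34 day 10 below 0 in both measures and 3 of the 5 pairs above 0.1. Covered length went with the number in KMS11 at day 10 (17.9 and 18.0 Mb for number 1, 26.7 and 27.1 Mb for number 2). The labels state no shared batch, so the numbers were not taken to pair the libraries, and whether they mark one was not tested; with the replicate block the counts were 103 and 82 between lines, 2 and 1 for TKO and 0 under NSD2LDD. Within pairs of replicates at most 0.239% of covered genes had identical values. Depth could not be weighed except through list length.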

Other observations

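Chromosome 19 also holds 15 zinc finger genes named otherwise (ZFP, ZSCAN, ZIK, ZIM and PEG genes). Of these, ZFP82 and ZIK1 had an end peak in all KMS34 and no KMS11 libraries (13.3%, against 13.4% of the ZNF genes). PEG3 and ZIM2, imprinted genes that share an end in the annotation, had the opposite pattern, with an end peak in 12 of 12 KMS11 and 0 of 10 KMS34 libraries. ZFP14 and ZSCAN22 had one in every library, ZFP30 in 11 KMS11 and 10 KMS34 libraries, and 8 genes, 6 of them ZSCAN genes, in none. At gene ends 2 of 7 tested were higher and 2 lower in KMS34, against 11.8% and 9.16% of all genes, and 4 of the 7 were covered at their ends in 1 line alone. These values were read after those of the ZNF genes.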
